A study of Rattus norvegicus with 6 samples.

Results

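The 10 genes described here encode the MCM helicase subunits Mcm2 to Mcm7 and the licensing factors Cdc6, Cdt1, Orc1 and Gmnn. They were taken by symbol from a count table of 16849 genes, and all 10 were present and passed the filter on low counts. RNA was sequenced from RSC96 cells, a rat Schwann cell line derived from long-term culture and labelled wild type, in 3 groups of 2 libraries. The PVDF@PDA group had the hypoxia model with a piezoelectric material, the PCL@PDA group had the hypoxia model with a non-piezoelectric material, and the third group was the Control. The hypoxia model used medium conditioned by macrophages for 24 h. The labels do not say whether Control cells received that medium, so a difference from Control is one between whole conditions. The description of PCL@PDA libraries gives PVDF@PDA as their non-piezoelectric material, so titles and treatment fields were followed. Each group had a library of batch 1 (replicate 1) and a library of batch 3 (replicate 3).

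Before a cell copies its DNA, the origin recognition complex, of which Orc1 is a subunit, marks the origins. Cdc6 and Cdt1 then load the ring formed by Mcm2 to Mcm7 onto the DNA, which licenses the origin. Geminin, the product of Gmnn, binds Cdt1 and blocks further loading after S phase has begun. Genes of this set are well-known targets of E2F transcription factors, and several are used as markers of late G1 and the entry into S phase.

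Libraries held 32760123 to 35389307 counted reads, and levels are given as CPM, the count scaled to library size with TMM factors. The replicates stood farther apart in PCL@PDA than in the other groups, with a chi-square over genes, divided by its degrees of freedom, of 4.80 for the PVDF@PDA pair, 10.2 for the PCL@PDA pair and 5.56 for the Control pair. Of 14 Schwann cell markers, 8 lay above 1 CPM in every library, and S100b, Ngfr, Mbp, Cdh19 and Gap43 lay below it in every library. Of 10 macrophage markers measured, 8 lay below 1 CPM in every library, and the sum over all 10 was 8.67 to 9.10 CPM with PVDF@PDA, 8.06 to 8.91 CPM with PCL@PDA and 8.10 to 8.11 CPM in Control. The macrophage marker Ptprc had 0 counts in 5 libraries and 1 count in Control replicate 3. Of 5 fibroblast markers measured, 4 lay above 1 CPM in every library, with sums of 812 to 835 CPM, 815 to 852 CPM and 837 to 847 CPM in the same order of groups. Marker levels are CPM of the library total, without TMM factors. Among Schwann cell markers above 1 CPM in any library, 3 were higher in all material libraries than in Control (Pmp22, Ncam1 and L1cam), 2 were lower (Erbb3 and Prx) and 3 overlapped. Pmp22 was at 50.5 to 57.1 CPM with the materials against 41.0 to 45.3 CPM in Control, and Erbb3 at 10.3 to 12.04 CPM against 17.2 to 17.4 CPM. Of the macrophage markers, Coro1a was higher, at 1.61 to 1.97 CPM with the materials against 0.819 to 0.881 CPM in Control, and Cd14 lower, at 4.53 to 5.09 CPM against 5.78 to 6.02 CPM. Of the fibroblast markers, Col1a1, Pdgfra and Thy1 were higher without overlap and Col1a2 was lower. The part of these shifts in the results was not tested.

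All 6 helicase subunits were higher with each material than in Control. The rise was 30.4% (Mcm5) to 45.4% (Mcm7) with PVDF@PDA and 48.5% (Mcm6) to 63.2% (Mcm3) with PCL@PDA. The loading factors Cdc6 and Cdt1 and the origin recognition subunit Orc1 rose in both comparisons as well. Gmnn, the inhibitor, did not pass the test in either. These calls come from edgeR's quasi-likelihood test at a threshold of 0.05 for p adjusted by Benjamini-Hochberg across 13018 genes. Of the 10 members, 9 were higher and 0 lower in each comparison with Control, where 15.7% of all tested genes were called with PVDF@PDA and 20.1% with PCL@PDA. Genes called higher made up 6.79% of all tested genes with PVDF@PDA and 8.77% with PCL@PDA. The 2 comparisons share the Control libraries.

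**Figure D1:**
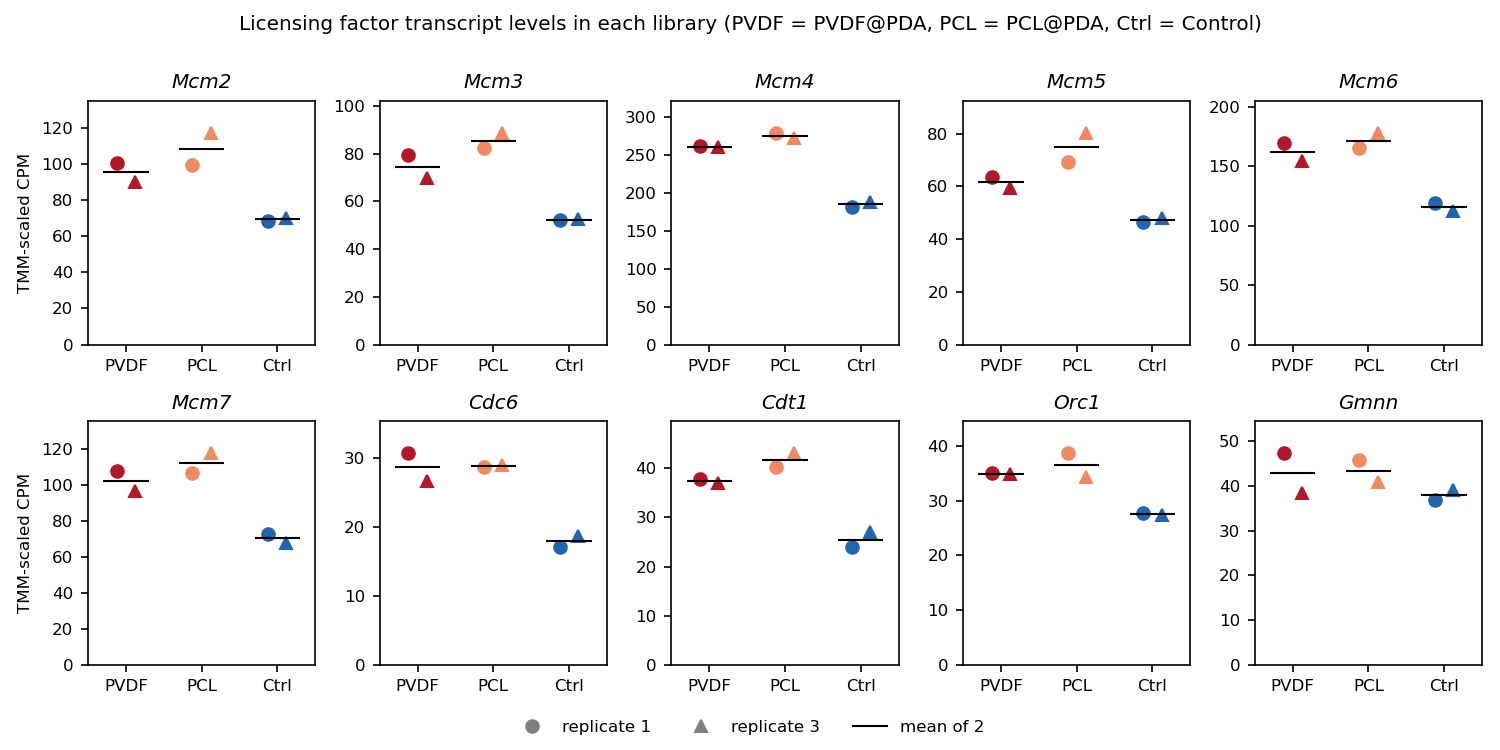
TMM-scaled CPM of each member (y axis from 0, scaled per gene) in the 2 libraries of each group, with circles for replicate 1, triangles for replicate 3 and a line at the mean. Both libraries of each material lie above both Control libraries for every gene except Gmnn, whose PVDF@PDA replicate 3 (38.3 CPM) lies below Control replicate 3 (39.1 CPM).

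Among the subunits of the ring, Mcm4 (gene ID 29728) had 262 and 259 CPM with PVDF@PDA, 279 and 271 CPM with PCL@PDA, and 181 and 188 CPM in Control. The 4 material libraries lay close together and well above both Control libraries. Against Control the log2 difference of Mcm4 was 0.50 with PVDF@PDA (SE 0.05, adjusted p = 5.39e-10) and 0.57 with PCL@PDA (SE 0.05, adjusted p = 4.76e-12). Mcm4 belongs to the catalytic core of the helicase together with Mcm6 and Mcm7. Mcm6 (gene ID 29685) had 170 and 154 CPM with PVDF@PDA, 165 and 178 CPM with PCL@PDA, and 119 and 112 CPM in Control. Its log2 difference from Control was 0.49 (SE 0.06, adjusted p = 2.06e-08) with PVDF@PDA and 0.57 (SE 0.06, adjusted p = 2.22e-10) with PCL@PDA. For Mcm6 the 2 material groups overlapped each other, and neither overlapped Control. Mcm7 (gene ID 288532) had 108 and 96.7 CPM with PVDF@PDA, 107 and 118 CPM with PCL@PDA, and 72.8 and 67.6 CPM in Control. Its log2 differences were 0.54 (SE 0.07, adjusted p = 3.30e-08) and 0.68 (SE 0.07, adjusted p = 5.73e-11) for PVDF@PDA and PCL@PDA against Control. The Mcm7 gene also hosts the microRNA genes Mir25, Mir93 and Mir106b in the newer rat annotation GRCr8.

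Mcm2, Mcm3 and Mcm5 are the subunits with mainly regulatory roles in the ring, where Mcm2 also binds histones and the contact between Mcm2 and Mcm5 forms the gate for DNA. Mcm2 (gene ID 312538) had 101 and 89.9 CPM with PVDF@PDA, 99.4 and 117 CPM with PCL@PDA, and 68.3 and 70.1 CPM in Control. The difference from Control was 0.46 log2 (SE 0.07, adjusted p = 4.01e-06) with PVDF@PDA and 0.65 log2 (SE 0.07, adjusted p = 1.43e-09) with PCL@PDA. Mcm2 in PCL@PDA replicate 3 was the highest of the 6 libraries and stood clear of the other material libraries. Mcm3 (gene ID 316273) had 79.3 and 69.9 CPM with PVDF@PDA, 82.3 and 88.7 CPM with PCL@PDA, and 52.1 and 52.6 CPM in Control. It differed from Control by 0.51 log2 (SE 0.07, adjusted p = 5.95e-07) with PVDF@PDA and 0.71 log2 (SE 0.07, adjusted p = 9.53e-11) with PCL@PDA. No 2 groups overlapped for Mcm3, with PCL@PDA highest. Mcm5 (gene ID 291885) had 63.7 and 59.5 CPM with PVDF@PDA, 69.4 and 80.4 CPM with PCL@PDA, and 46.5 and 47.9 CPM in Control. Its log2 difference from Control was 0.38 (SE 0.08, adjusted p = 0.000263) with PVDF@PDA and 0.67 (SE 0.08, adjusted p = 2.21e-09) with PCL@PDA. The order of groups was that of Mcm3, again without overlap. In bulk RNA, a change in the share of cells that express these genes and a change in RNA per cell cannot be told apart.

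The loading factors followed with lower levels. Cdc6 (gene ID 360621), the ATPase that joins Orc1 at the origin, had 30.8 and 26.7 CPM with PVDF@PDA, 28.8 and 29.0 CPM with PCL@PDA, and 17.2 and 18.7 CPM in Control. It rose by 59.9% with PVDF@PDA (log2 0.68, SE 0.11, adjusted p = 4.93e-06) and by 60.9% with PCL@PDA (log2 0.69, SE 0.11, adjusted p = 2.85e-06). For Cdc6 the PCL@PDA libraries fell between the 2 PVDF@PDA libraries. Cdt1 (gene ID 292071), which brings the MCM ring to the origin, had 37.8 and 37.0 CPM with PVDF@PDA, 40.2 and 43.1 CPM with PCL@PDA, and 24.0 and 26.9 CPM in Control. It rose by 46.8% with PVDF@PDA (log2 0.55, SE 0.09, adjusted p = 1.53e-05) and by 63.4% with PCL@PDA (log2 0.71, SE 0.09, adjusted p = 6.19e-08). Here all 3 groups were apart from each other. Orc1 (gene ID 313479) had 35.1 and 34.8 CPM with PVDF@PDA, 38.7 and 34.3 CPM with PCL@PDA, and 27.7 and 27.4 CPM in Control. Its rise was 26.8% with PVDF@PDA (log2 0.34, SE 0.10, adjusted p = 0.00889) and 32.3% with PCL@PDA (log2 0.40, SE 0.10, adjusted p = 0.00134). The call of Orc1 with PVDF@PDA ended when any single PVDF@PDA or Control library was left out, at a log2 difference of 0.33 to 0.35. The adjusted p was then 0.0700 (PVDF@PDA replicate 1 left out), 0.0633 (PVDF@PDA replicate 3), 0.0610 (Control replicate 1) or 0.0776 (Control replicate 3).

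Gmnn (gene ID 291137) had 47.3 and 38.3 CPM with PVDF@PDA, 45.7 and 40.8 CPM with PCL@PDA, and 36.9 and 39.1 CPM in Control. The high values were those of replicate 1 of each material, and the PVDF@PDA and Control groups overlapped. The log2 difference from Control was 0.17 with PVDF@PDA (95% interval -0.01 to 0.36, adjusted p = 0.222) and 0.19 with PCL@PDA (95% interval 0.00048 to 0.37, adjusted p = 0.160). Within batch 1 it was 0.36 with PVDF@PDA and 0.31 with PCL@PDA, and within batch 3 it was -0.03 and 0.06 for the same materials. The ratio of Cdt1 to Gmnn counts was 0.799 and 0.966 with PVDF@PDA, 0.879 and 1.06 with PCL@PDA, and 0.651 and 0.689 in Control. All 4 material libraries thus had a higher ratio than both Control libraries, and in each group the ratio was higher in the batch 3 library. Over all members, both PVDF@PDA libraries lay above both Control libraries for 9 of 10 genes, against 29.4% of all tested genes, and below for 0 of 10, against 29.2%. For PCL@PDA this held for 10 of 10 genes, against 28.3% of all tested genes, and below for 0 of 10, against 27.8%.

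**Figure D2:**
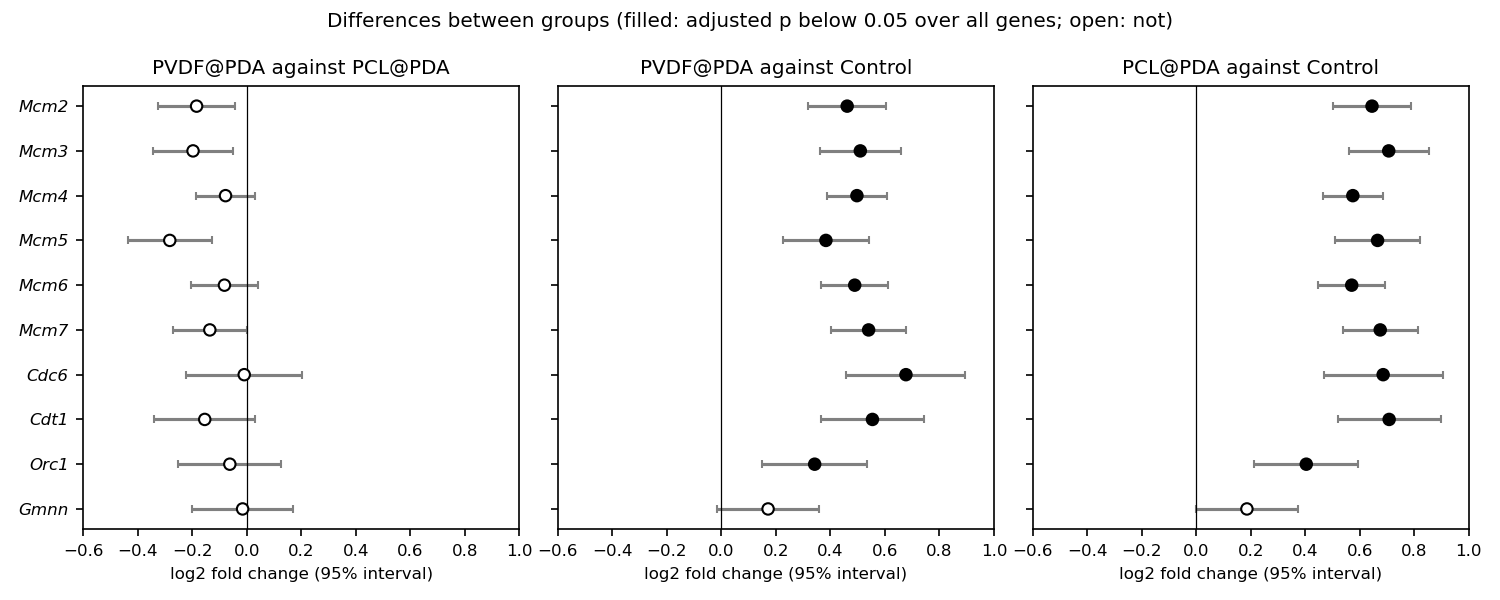
Log2 fold change (x axis) with its 95% interval for each member in the 3 comparisons, filled where the adjusted p over all genes was below 0.05. Against Control 9 of 10 intervals lie above 0 with PVDF@PDA, and between the materials all 10 points lie at or left of 0 and none is filled.

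PVDF@PDA and PCL@PDA differ in polymer as well as in being piezoelectric, so effects of these cannot be told apart. No group had the hypoxia model without a material. When the 2 materials were compared with each other, no member was called. By edgeR 0 of 10 members passed, with 4 at an unadjusted p below 0.05, and 0.0615% of all tested genes were called (0.0538% higher and 0.00768% lower with PVDF@PDA). DESeq2 called 0 members with 3 at an unadjusted p below 0.05, and limma on log2(FPKM + 1) called 0 with 2. All 10 estimates were below 0, with a median log2 difference of -0.11, and -0.16 over the 6 helicase subunits, against 0.0045 over all tested genes. Both PVDF@PDA libraries lay below both PCL@PDA libraries for 4 members (Mcm3, Mcm4, Mcm5 and Cdt1), where 18.9% of all tested genes did so. None of the 10 lay above in both libraries, as 19.2% of all tested genes did. The estimate farthest from 0 was that of Mcm5, at -0.28 log2 (95% interval -0.44 to -0.13, adjusted p = 0.255). It was followed by Mcm3 at -0.20 (-0.34 to -0.05, adjusted p = 0.424), Mcm2 at -0.18 (-0.33 to -0.04, adjusted p = 0.441), Cdt1 at -0.15 (-0.34 to 0.03, adjusted p = 0.657) and Mcm7 at -0.14 (-0.27 to -0.00056, adjusted p = 0.584). The intervals of Mcm4 (-0.19 to 0.03), Mcm6 (-0.20 to 0.04), Cdc6 (-0.22 to 0.20), Orc1 (-0.25 to 0.13) and Gmnn (-0.20 to 0.17) include 0.

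The difference between the materials was not the same in both batches and moved with each of their 4 libraries. Between the libraries of batch 1, 5 of 10 members were lower with PVDF@PDA and the median log2 difference of the helicase subunits was -0.02. Between the libraries of batch 3, 9 of 10 were lower and that median was -0.31. Mcm2 differed by 0.02 log2 in batch 1 and by -0.38 in batch 3, and Mcm5 by -0.12 and -0.43. In a fit with the batch as a block, Mcm5 alone passed (log2 -0.28, adjusted p = 0.0386), where 0.453% of all tested genes were called. Against Control the block left 9 of 10 members called with each material, where it called 19.9% of all tested genes with PVDF@PDA and 23.4% with PCL@PDA. Without PCL@PDA replicate 1, 4 members passed as lower with PVDF@PDA, namely Mcm2 (-0.30, adjusted p = 0.00185), Mcm3 (-0.25, adjusted p = 0.0267), Mcm5 (-0.38, adjusted p = 0.000456) and Mcm7 (-0.20, adjusted p = 0.0480). In that setting 6.16% of all tested genes were called, 3.28% as lower, so calls increased over the whole table. It leaves PCL@PDA replicate 3 alone in its group, with its spread assumed to be that of the other groups, although the PCL@PDA pair was the most dispersed. The 4 calls therefore do not test PCL@PDA replicates against each other. Without PCL@PDA replicate 3, 0 members passed and the difference was -0.06 for Mcm2, -0.14 for Mcm3, -0.17 for Mcm5 and -0.06 for Mcm7. The median over the helicase subunits became -0.24 when PVDF@PDA replicate 1 was left out and -0.09 when its replicate 3 was, and -0.23 and -0.08 when PCL@PDA replicates 1 and 3 were. No member passed without either PVDF@PDA library.

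Levels of different genes were compared on the deposited FPKM values, which are scaled by gene length. Mcm4 was the most abundant member, with 78.8 and 78.4 FPKM with PVDF@PDA, 83.7 and 82.9 FPKM with PCL@PDA, and 53.1 and 55.5 FPKM in Control. Mcm6 followed at 58.6 and 53.4 FPKM with PVDF@PDA, 56.8 and 62.3 FPKM with PCL@PDA, and 39.9 and 37.9 FPKM in Control. No library of a member other than Mcm4 reached those of Mcm6 within its group. With PVDF@PDA the order went on with Mcm7 (mean 39.1 FPKM), Gmnn (32.8), Mcm2 (28.4), Mcm3 (25.6), Mcm5 (22.2), Cdt1 (16.8), Orc1 (11.6) and Cdc6 (9.83). In this order the ranges of Gmnn and Mcm2 overlapped between libraries, as did those of Mcm2 and Mcm3. Within each PVDF@PDA library Gmnn lay above Mcm2 and Mcm2 above Mcm3, and these differences between genes were not tested. In PCL@PDA the same order held, with overlaps of Gmnn with Mcm2, Mcm2 with Mcm3 and Mcm3 with Mcm5. In Control Gmnn (28.4 FPKM) came before Mcm7 (26.2), and all other members kept their places down to Cdc6 (5.99).

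**Figure D3:**
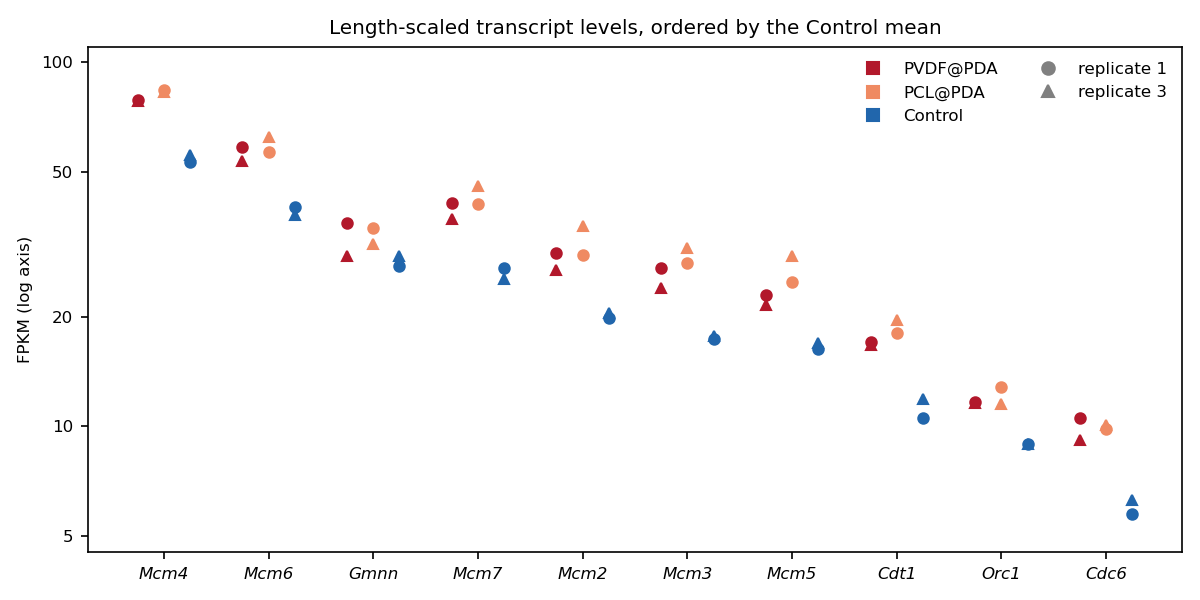
Deposited FPKM (log axis) of each member in every library, coloured by group and ordered by the Control mean. Mcm4 and Mcm6 lie highest in every group, and Cdc6 lies lowest, at 9.14 to 10.5 FPKM with the materials and 5.72 and 6.26 FPKM in Control.

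Although the proteins of the ring are used in equal numbers, their transcripts were not equally abundant. The FPKM of Mcm4 exceeded that of Mcm5 by 3.44 and 3.65 times with PVDF@PDA, 3.36 and 2.82 times with PCL@PDA, and 3.26 and 3.28 times in Control. Mcm4 made up 30.5% and 32.5% of the summed FPKM of the 6 subunits with PVDF@PDA, 31.7% and 28.9% with PCL@PDA, and 30.6% and 31.9% in Control. Its share in Control lay within the range of the material libraries, while the sum itself was 259 and 241 FPKM with PVDF@PDA, 264 and 286 FPKM with PCL@PDA, and 174 FPKM in each Control library. Together the 6 subunits took 0.0787% and 0.0736% of all counted reads with PVDF@PDA, 0.0804% and 0.0870% with PCL@PDA, and 0.0528% and 0.0530% in Control.

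Promoter sequences were not used to choose the members. As genes of this set are well-known E2F targets, a search for E2F words is not independent of that choice. RefSeq promoters (GRCr8, 250 bases before to 50 after the start) matched 7 members by gene ID, while Mcm4, Cdc6 and Orc1 had no entry. The 8-letter words TTTCCCGC, TTTCGCGC, TTTGCCGC and TTTGGCGC, which are forms of the E2F motif, were searched on both strands. All 7 members held at least 1 of these words, against 3.80% of the promoters of the other 12107 tested genes with an entry and 2.14% of all 33469 promoters. The words can overlap on opposite strands, so that Mcm2 has a pair in 12 letters. The GC content of the 7 windows was 48.7% (Mcm3) to 64.7% (Cdt1), and the median over tested genes was 60.0%. CCAAT, the letters of the NF-Y motif, was found on either strand in 5 of the 7, against 37.9% of the other tested genes. A match describes letters and was not tested as a site. The 4 members whose E2F words lie upstream of the start are shown 5′ to 3′ on the strand of the gene, with the words in capitals and the last base just before the start.
Mcm2, chr4:122918095-122918344, minus strand: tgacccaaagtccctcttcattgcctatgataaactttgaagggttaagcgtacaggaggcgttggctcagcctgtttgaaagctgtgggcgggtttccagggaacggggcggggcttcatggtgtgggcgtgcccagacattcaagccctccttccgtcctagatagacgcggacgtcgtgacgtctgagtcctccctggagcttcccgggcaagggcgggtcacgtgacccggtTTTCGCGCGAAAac
Mcm5, chr19:13488563-13488812, plus strand: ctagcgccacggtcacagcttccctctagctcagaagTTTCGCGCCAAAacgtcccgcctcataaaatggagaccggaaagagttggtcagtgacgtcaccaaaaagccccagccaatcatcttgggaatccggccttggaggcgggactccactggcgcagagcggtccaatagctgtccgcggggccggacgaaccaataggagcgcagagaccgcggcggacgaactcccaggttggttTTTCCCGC
Mcm6, chr13:42404353-42404602, minus strand: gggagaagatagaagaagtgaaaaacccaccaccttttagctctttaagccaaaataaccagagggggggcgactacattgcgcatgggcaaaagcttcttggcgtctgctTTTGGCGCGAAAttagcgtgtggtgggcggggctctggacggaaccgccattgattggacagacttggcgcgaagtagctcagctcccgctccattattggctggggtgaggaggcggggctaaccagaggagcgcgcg
Mcm7, chr12:22163179-22163428, minus strand: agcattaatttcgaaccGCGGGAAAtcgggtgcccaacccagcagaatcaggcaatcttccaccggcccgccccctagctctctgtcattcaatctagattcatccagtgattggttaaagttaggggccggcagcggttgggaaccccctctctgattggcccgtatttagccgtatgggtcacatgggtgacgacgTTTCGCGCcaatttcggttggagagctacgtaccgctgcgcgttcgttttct

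In these windows the word nearest the start lies 3 to 10 bases before it in Mcm2, 1 to 8 bases before it in Mcm5, 128 to 135 bases before it in Mcm6 and 45 to 52 bases before it in Mcm7. In Mcm3 a word spans the start, and in Cdt1 and Gmnn the words lie downstream of it. Gmnn, which was not called, thus also holds a word. Of the mitosis genes listed further on, 0 of 13 with a promoter entry held an E2F word, and 6 of 14 S phase genes did. Among the other lists, a word was held by 2 of 5 other origin recognition genes and 2 of 4 MCM genes outside the ring. The counts were 4 of 12 for origin firing, 3 of 13 for licensing regulators and 3 of 8 for E2F and pocket protein genes. Whether a word goes with the direction of change was not tested.

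None of the other origin recognition genes passed as higher in the edgeR fit over all libraries. Of 6 other genes of the complex and its partner Lrwd1, 0 rose and 1 fell in each comparison with Control, with a median log2 difference of -0.01 with PVDF@PDA and -0.02 with PCL@PDA, against 0.01 over all tested genes in both. The gene that fell was Orc2, at 76.4 ± 1.38 CPM with PVDF@PDA and 77.7 ± 7.13 CPM with PCL@PDA, against 92.0 ± 1.93 CPM in Control (SD, n = 2 each, log2 -0.27 and -0.24, adjusted p = 0.00423 and 0.00806 in that order of materials). The call of Orc2 ended without PVDF@PDA replicate 1 (adjusted p = 0.0622) or Control replicate 1 (0.0681) in the first comparison, and without PCL@PDA replicate 3 (0.137) or Control replicate 1 (0.101) in the second. Both calls also ended under limma on FPKM at pseudocounts 1 and 0.1 (0.0887 and 0.0825 with PVDF@PDA, 0.106 and 0.1001 with PCL@PDA). Orc6 (log2 0.17 and 0.27), Orc4 (-0.05 and -0.12) and Orc5 (-0.07 and -0.04) did not pass with PVDF@PDA or PCL@PDA. Orc6 did pass as higher with PCL@PDA under the batch block (adjusted p = 0.0476), library totals alone (0.0322) and limma at both pseudocounts (0.0323 and 0.0287). Orc4 passed as lower there without PCL@PDA replicate 1 (0.0230). The difference between Orc1 and the other subunits was not tested.

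Among MCM proteins outside the ring, Mcm10, which helps activate the loaded helicase, rose with both materials. It had 48.3 ± 5.15 CPM with PVDF@PDA, 51.7 ± 1.34 CPM with PCL@PDA and 38.4 ± 1.70 CPM in Control (log2 0.33 and 0.43, adjusted p = 0.00445 and 0.000152). With PVDF@PDA that call ended without PVDF@PDA replicate 1 (adjusted p = 0.241) or Control replicate 1 (0.0885), and under limma at both pseudocounts (0.0841 and 0.0778). Mcm9, a helicase of recombination repair, passed with PCL@PDA (log2 0.41, adjusted p = 0.0127) and had a log2 difference of 0.16 with PVDF@PDA (adjusted p = 0.425). The Mcm9 call ended without PCL@PDA replicate 1 (0.182) or Control replicate 3 (0.274). Under limma it ended as well (0.133 and 0.135). The MCM-binding protein gene Mcmbp (log2 -0.07 and 0.08) did not pass, nor did Mcmdc2, at 2 to 18 counts per library.

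Genes that turn a licensed origin into a working fork moved in part with the members. Of 13, 6 rose and 1 fell with PVDF@PDA (median log2 0.22) and 4 rose and 1 fell with PCL@PDA (0.15). Wdhd1, a fork scaffold, had 159 ± 8.52 CPM with PVDF@PDA, 157 ± 1.70 CPM with PCL@PDA and 119 ± 7.90 CPM in Control (log2 0.42 and 0.40). Topbp1, which helps recruit Cdc45, rose by 0.29 and 0.32 log2, and Donson, an origin firing factor, had log2 differences of 0.39 (called) and 0.29 (adjusted p = 0.0523). The gene that fell was Dbf4, the activating subunit of the kinase that phosphorylates the MCM ring, at 104 ± 2.26 CPM with PVDF@PDA and 94.3 ± 10.3 CPM with PCL@PDA against 138 ± 4.87 CPM in Control (log2 -0.41 and -0.55). Its kinase partner Cdc7 had log2 differences of -0.07 and 0.08 and did not pass. With single libraries left out, the genes of this list that rose with PVDF@PDA numbered 2 without PVDF@PDA replicate 1 or Control replicate 3, and 3 without PVDF@PDA replicate 3 or Control replicate 1, and the PVDF@PDA calls of Topbp1 and Donson were among those lost (adjusted p = 0.112 for Topbp1 without PVDF@PDA replicate 1 and 0.0517 without Control replicate 3, and 0.0843 for Donson without PVDF@PDA replicate 3 and 0.368 without Control replicate 1). The Donson call with PVDF@PDA also ended under limma (0.149 and 0.143), while with PCL@PDA Donson passed in 7 of the alternatives (0.00196 to 0.0429).

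**Figure D4:**
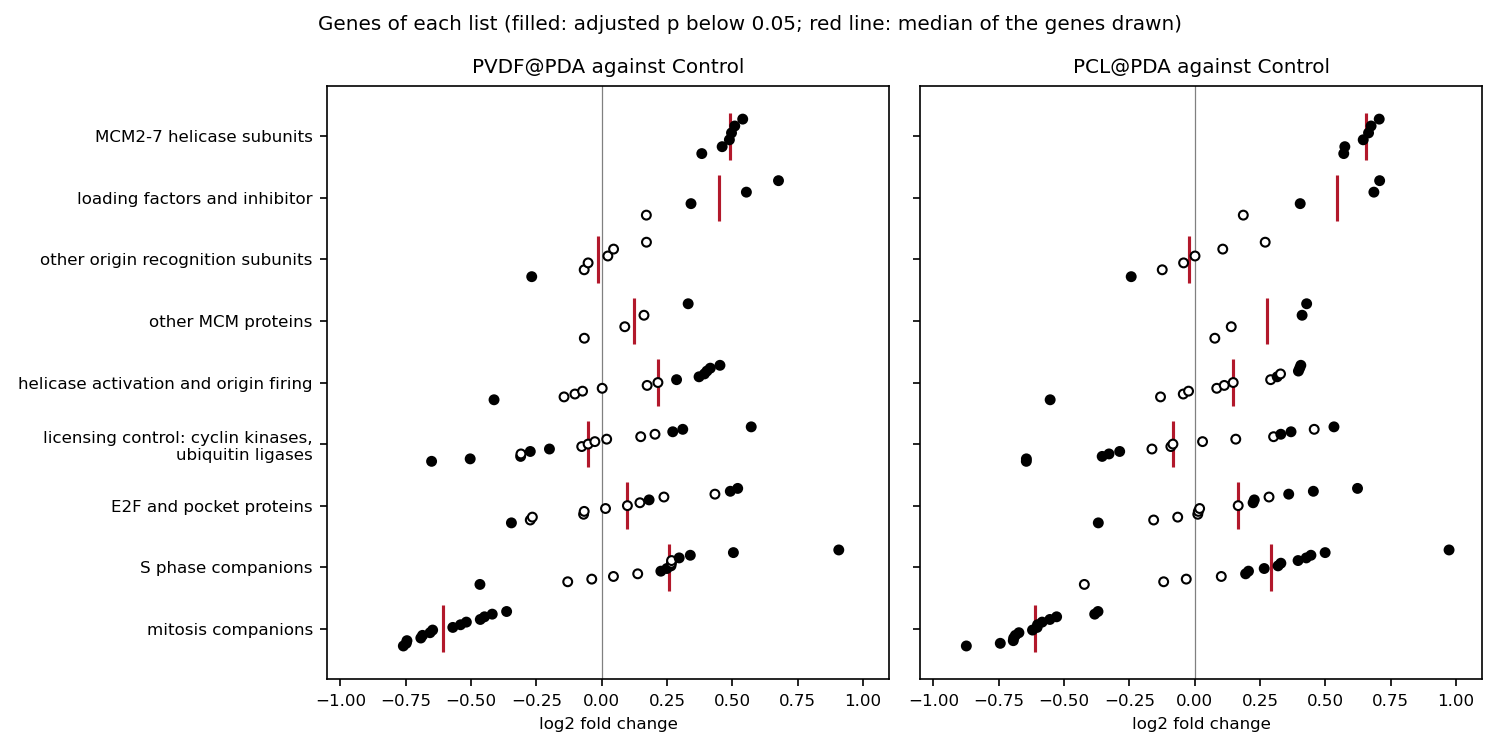
Log2 fold change against Control (x axis) of each gene in 9 lists for PVDF@PDA (left) and PCL@PDA (right), filled where the adjusted p was below 0.05, with the median as a red line. Mcmdc2, with few counts, is not drawn. The 6 helicase subunits lie between 0.38 and 0.71 and the 14 mitosis genes between -0.87 and -0.36.

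Regulators of licensing moved in both directions. Of 15 genes of cyclins, kinases, ubiquitin ligases and their regulators, 3 rose and 5 fell with each material. Without PVDF@PDA replicate 3 these counts were 1 and 2 with PVDF@PDA, and with the batch block 5 rose and 5 fell with PCL@PDA. Ccne2, a cyclin of S phase entry, had 35.2 ± 0.994 CPM with PVDF@PDA, 34.2 ± 2.23 CPM with PCL@PDA and 23.7 ± 0.389 CPM in Control (log2 0.57 and 0.53). Ccne1, the other cyclin E gene, did not pass in the edgeR fit over all libraries (log2 0.20 and 0.46, adjusted p = 0.496 and 0.0598). Under the batch block Ccne1 passed as higher with PCL@PDA (adjusted p = 0.0428). Ccna2, the cyclin of S phase and G2, fell to 67.9 ± 2.62 CPM with PVDF@PDA and 68.2 ± 4.58 CPM with PCL@PDA, against 107 ± 3.96 CPM in Control (log2 -0.65 and -0.64). The mitotic kinase Cdk1 fell by 0.27 log2 with PVDF@PDA and fell by 0.33 log2 with PCL@PDA. Fbxo5, an inhibitor of the anaphase-promoting complex that stabilises geminin, fell by 0.50 log2 with PVDF@PDA and fell by 0.64 log2 with PCL@PDA, where the first call ended without PVDF@PDA replicate 3 (adjusted p = 0.210) and under limma (0.0740 and 0.0645).

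Among 13 E2F and pocket protein genes, 3 rose and 1 fell with PVDF@PDA, and 5 rose and 1 fell with PCL@PDA. Leaving out PVDF@PDA replicate 1 left 1 that rose with PVDF@PDA, and leaving out any other single PVDF@PDA or Control library left 2. With PCL@PDA, 3 rose without PCL@PDA replicate 1 and 2 without either Control library. E2f1, an activator of licensing genes, had 29.0 ± 0.693 CPM with PVDF@PDA, 31.1 ± 1.20 CPM with PCL@PDA and 20.2 ± 1.19 CPM in Control (log2 0.52 and 0.62, adjusted p = 0.000200 and 7.89e-06). Tfdp2, a dimer partner of E2F, rose by 0.49 and 0.45 log2, and the PVDF@PDA call ended without PVDF@PDA replicate 1 (adjusted p = 0.0726). Both Tfdp2 calls ended under limma at both pseudocounts (0.0552 and 0.0532 with PVDF@PDA, 0.0536 and 0.0523 with PCL@PDA). E2f5, a repressive E2F, fell by 0.35 log2 with PVDF@PDA and fell by 0.37 log2 with PCL@PDA. The first of these calls ended without PVDF@PDA replicate 1 (0.0627) or Control replicate 3 (0.0680). The pocket protein gene Rbl1 rose by 0.18 and 0.22 log2, a PVDF@PDA call (adjusted p = 0.0464) that ended without any single PVDF@PDA or Control library (0.0856 to 0.343) and a PCL@PDA call that ended without PCL@PDA replicate 1 (0.209), Control replicate 1 (0.0777) or Control replicate 3 (0.0551). Both Rbl1 calls ended under limma (0.125 and 0.115 with PVDF@PDA, 0.0684 and 0.0616 with PCL@PDA), and the PVDF@PDA call under DESeq2 (0.0972).

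S phase genes rose in part while mitosis genes fell throughout. Of 14 S phase genes, 7 rose with PVDF@PDA and 10 rose with PCL@PDA, with medians of 0.26 and 0.29 log2. Of these, 6 rose with PCL@PDA without Control replicate 1. Ung, a uracil-DNA glycosylase active at forks, had 24.6 ± 1.71 CPM with PVDF@PDA, 25.8 ± 1.07 CPM with PCL@PDA and 13.1 ± 0.170 CPM in Control (log2 0.91 and 0.97). The polymerase subunit Pola1 rose by 0.50 and 0.40 log2, the ligase Lig1 by 0.34 and 0.50, and the chromatin reader Uhrf1 by 0.30 and 0.43. All 14 mitosis genes fell with each material, with medians of -0.61 log2 in both comparisons, where 8.9% of all tested genes were called lower with PVDF@PDA and 11.3% with PCL@PDA. Ccnb1, the mitotic cyclin, had 185 ± 7.58 CPM with PVDF@PDA, 185 ± 4.73 CPM with PCL@PDA and 297 ± 7.25 CPM in Control (log2 -0.69 in both comparisons). The topoisomerase Top2a (-0.52 and -0.60), the motor Kif11 (-0.57 and -0.60) and the kinetochore protein gene Cenpf (-0.75 and -0.87) fell too. All 14 mitosis calls and the 6 calls of the helicase subunits held in each comparison when any single library was left out, and all kept their direction under all 3 scalings tried.

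Across the 6 libraries, the mean standardised profile of the 10 members was most like that of Armcx4, at a Pearson r of 0.995. It was followed by Timeless, a fork protection gene (0.995), Dip2b (0.994), Zfp609 (0.992) and Lamp1 (0.991), out of 8878 candidate genes. These points share libraries and scaling, and 3 groups of 2 make most of the spread. The single members had an r with that mean profile, of which each is a part, of 0.73 (Gmnn) to 0.99 (Mcm3). Timeless rose by 0.40 log2 with PVDF@PDA and by 0.50 log2 with PCL@PDA (adjusted p = 4.36e-05 and 4.09e-07). Armcx4 (log2 0.21 and 0.26) and Lamp1 (0.21 and 0.28) passed in both comparisons as well. Dip2b (0.17 and 0.20, adjusted p = 0.130 and 0.0546) and Zfp609 (0.09 and 0.11, adjusted p = 0.330 and 0.172) passed in neither.

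The strand setting of the counting is not given in the sources used here, so reads of a gene and of one that adjoins or overlaps it cannot always be told apart. In GRCr8 no member overlaps another tested gene. Mcm4 (beside Prkdc), Mcm7 (beside Cops6 and Ap4m1), Cdt1 (beside Aprt) and Orc1 (beside Prpf38a and Cc2d1b) have a tested neighbour within 1 kb. Prkdc differed from Control by 0.21 log2 with PVDF@PDA (adjusted p = 0.0222) and by 0.22 log2 with PCL@PDA (adjusted p = 0.0126), where the estimates of Mcm4 were 0.50 and 0.57. Cc2d1b passed with PCL@PDA (log2 0.21, adjusted p = 0.0369), and no other of these neighbours passed in either comparison with Control.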

How the data were processed

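The authors deposited raw read counts per gene for the 6 libraries and FPKM values per library. Dividing counts by FPKM and library total returned 1 length per gene, equal between libraries to a relative 1e-05, in 15690 of 15690 genes with reads in 2 or more libraries. Per the submitters' processing notes, the assembly was mRatBN7.2 and DESeq2 1.4.5 was among the tools, with no role stated. Aligner, counter, annotation and strand: not given in the sources used here. Samples were grouped by title, and columns matched through the library name in each description. For the batch 3 libraries these names and the deposited columns carry the number 2 where the titles carry 3, and the number in the title is used here.

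The count model was a robust quasi-likelihood fit in edgeR 4.0.16 under R 4.3.3, after filterByExpr and TMM scaling, of 3 group means over 6 libraries, with 3 residual degrees of freedom, which kept 13018 genes and removed 3831. The median prior degrees of freedom were 50.3, so p-values and intervals rest largely on a spread estimated across genes. The 3 comparisons were tested 2-sided with Benjamini-Hochberg adjustment over all genes tested, at a threshold of 0.05. Adjusted p-values, log2 fold changes, SE and 95% intervals come from this fit unless another is named. The code was tested on simulated data. The biological coefficient of variation was 6.47%. At these depths 3 counts equal 0.0848 to 0.0916 CPM.

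The labels tie replicate 1 to batch 1 and replicate 3 to batch 3, so the numbers pair the libraries by batch. Deviations from the group mean correlated between libraries of a batch with r of -0.03 for the 2 materials, 0.04 for PVDF@PDA and Control, and 0.14 for PCL@PDA and Control. The labels do not say that libraries came from separate cultures, so the spread behind p-values is that between these samples and may be technical. No pair of libraries of the same group matched within sampling noise, and pairs across groups were not checked.

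Alternatives were RLE size factors, library totals, no filter, DESeq2 1.42.0, limma 3.58.1 on log2(FPKM + 1) and log2(FPKM + 0.1), the batch term, a fit of the 4 libraries compared, and each library left out. The members and gene lists were chosen with earlier results of these data known. Named were all 10 members, up to 4 genes with the smallest p in PVDF@PDA against Control from each other list, the 5 genes with mean log2 CPM of at least 3 most like the members' mean profile, and cell type markers. Cdc7, Ccne1 and the neighbours Prkdc, Cops6, Ap4m1, Aprt, Prpf38a and Cc2d1b were chosen after values were seen, and Mir25, Mir93 and Mir106b by position alone. RefSeq GRCr8 matched 16673 gene IDs and served for neighbours and promoters. Some items of the lists are not reported here.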

Additional observations from a re-analysis of the deposited data

How the results depend on the processing

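In PCL@PDA against Control, all 140 single-gene results of the members kept their direction and side of the threshold under the alternatives, as did 136 of 140 in PVDF@PDA against Control. The other 4 were Orc1 with a library left out. Members called higher ranged from 8 to 9 with PVDF@PDA and stayed at 9 with PCL@PDA without single libraries. Between the materials, members called lower ranged from 0 to 4 without single libraries and were 1 with the replicate block. The block changed no other call of a member. It left 2 residual degrees of freedom, with infinite median prior degrees of freedom. Genes called over the whole table between the materials numbered 8, against 5 with library totals or DESeq2, 17 with no filter, 0 under limma at either pseudocount, 59 with the replicate block and 0 to 827 without single libraries. Against Control they numbered 2042 with PVDF@PDA, 859 and 986 with limma at pseudocounts 1 and 0.1, and 1031 to 2869 without single libraries. With PCL@PDA they numbered 2616, 1304 and 1413 with limma, and 1346 to 3173 without single libraries. Library totals alone moved the share of higher calls to 57.0% with PVDF@PDA, against 43.3%, and to 58.1% with PCL@PDA, against 43.7%. Under limma at pseudocounts 1 and 0.1 it was 52.0% and 52.5% with PVDF@PDA, and 57.5% and 58.1% with PCL@PDA. The cause was not tested. With 2 libraries a group, the width of the intervals limits what can be said of Gmnn and of the 2 materials.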
